A study of Mus musculus with 20 samples.

Results

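The transcription factor REST, encoded by Rest, and 34 neuronal genes with known REST sites were followed by RNA-seq in mouse embryos and cells that lack the zinc finger protein ZMYM2. The 35 genes were chosen by symbol from general knowledge of REST targets and not from their values in these libraries, although results of the same libraries were known when the list was drawn up. All 35 were found among the 22729 genes of the raw counts of embryos, 34 among the 20142 genes of embryoid bodies (EBs), and 32 among the 20159 genes of mouse embryonic stem cells (mESCs), out of 25199 genes in any of these tables. Gria2 was in neither cell table, and Scg2 and Rab3c were not in that of mESCs.

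The series asked how transcription changes without ZMYM2. Whole C57BL/6 embryos at E8.5 came from crosses of Zmym2+/- parents, with 6 Zmym2+/+ embryos and 6 Zmym2-/- embryos, each group made of 3 males and 3 females. The Zmym2-/- embryos carried a frameshift in the first coding exon and had no visible abnormality at this age, before most of the neurons of the embryo have formed. The cell lines were clones of V6.5 mESCs (C57BL/6x129/SvJae), with Zmym2-/- lines and control lines that had received a non-targeting sgRNA, each genotype grown in serum with LIF (day 0) and as EBs, floating aggregates in which the cells differentiate, for 3 days. Each genotype had 2 libraries per stage, and the sources used here do not say which clone gave which library, so a p-value measures only the spread between these libraries, which may be technical. All 3 Zmym2-/- males carried the same number in their names, read here as 1 litter. Embryo names began with H or J, called series below, and the sources used here do not say what the letters mean. Zmym2+/+ embryos 1, 2, 4 and 5 and Zmym2-/- embryos 4 and 5, both females, had H names. The others had J names, so series was not balanced over genotype and sex. Libraries with H names held 38142819 to 41299677 counts and those with J names 48908253 to 64057608. The 20 libraries held 32016880 to 64057608 counts. The level of Zmym2 RNA was 50.3, 87.9 and 125 CPM (lowest, median and highest) in Zmym2+/+ embryos against 25.4, 47.7 and 67.1 CPM in Zmym2-/- embryos, so the groups overlapped (log2 fold change -0.91, SE 0.25, adjusted p = 0.226 by edgeR's quasi-likelihood test). Zmym2-/- males and females did not overlap in it. A frameshift need not remove the RNA. In mESCs Zmym2 was at 68.1 and 71.95 CPM in controls against 29.4 and 27.6 CPM in Zmym2-/- lines, and in EBs at 91.2 and 91.7 CPM against 31.9 and 30.3 CPM.

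REST is a zinc finger repressor that binds the RE1 element and keeps neuronal genes silent outside neurons. Its ends recruit the CoREST complex, with the scaffold RCOR1, the demethylase KDM1A and the deacetylases HDAC1 and HDAC2, and the SIN3 complex. REST is abundant in pluripotent cells and is lost as progenitors become neurons, and its targets encode the neuronal cytoskeleton, the vesicle release machinery, secreted granins and receptors.

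The RE1 element itself is shown for the 3 genes that held a close match at the promoter, since it is the sequence feature by which the genes are known. RefSeq promoter windows, from 250 bases before to 50 bases after the start site (GRCm38.p6), were at hand for 25 of the 35 genes and were searched on both strands for TTCAGCACCNNGGACAGC with at most 2 mismatches. The sequences are given 5′ to 3′ with the match in capitals.
Celsr3, chr9:108825897-108825956, plus strand, which is the strand of the gene: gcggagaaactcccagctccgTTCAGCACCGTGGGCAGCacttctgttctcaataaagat
Gria2, chr3:80802968-80803027, plus strand, opposite to the gene: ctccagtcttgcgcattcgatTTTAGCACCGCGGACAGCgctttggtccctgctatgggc
Syn1, chrX:20921112-20921168, minus strand, which is the strand of the gene: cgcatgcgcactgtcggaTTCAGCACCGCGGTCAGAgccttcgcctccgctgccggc

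Counted from 1 at the 5′ end of the motif, the match of Celsr3 differed at A14G, that of Gria2 at C3T, and that of Syn1 at A14T and C18A. Their centres lay at -118, -162 and -223 from the start site. Over all 32851 windows of the table, 23 (0.0700%) held such a match. The first 9 letters alone, TTCAGCACC, were found in windows of 4 of the genes, which were Celsr3, Scg2, Syn1 and Unc13a, and in 122 (0.371%) of all windows. RE1 elements can lie far from a start site, and this window says nothing of those. Rest, Stmn2, Nefl, Nefm, Cdk5r1, Snap25, Syt4, Rundc3a, Vgf and Mapk8ip1 were not searched here.

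Most of the neuronal genes were transcribed at low levels in embryos, and more of them passed a level of 1 RPKM in mESCs and EBs. To compare genes, the RPKM values of the authors were used, which are scaled to gene length, and which were normalized separately for the embryos and for the cell lines. Mean RPKM was 1 or more for 9 of the 34 targets in embryos, 19 in mESCs and 19 in EBs, and under 0.1 for 9, 6 and 4 of them. In embryos the highest were Tubb3, the neuronal β-tubulin, at 11.4 ± 2.45 RPKM (SD, n = 12), Mapk8ip1, a scaffold of JNK signalling, at 6.78 ± 2.46 RPKM, and Nefl, the light neurofilament subunit, at 4.92 ± 2.34 RPKM, over both genotypes. The rank of Nefl did not hold within genotypes, since Stmn2 had the higher mean in Zmym2+/+ embryos (5.24 against 4.62 RPKM) and Ina in Zmym2-/- embryos (5.75 against 5.22 RPKM), all within their spread. In mESCs the highest were Tubb3 at 64.6 ± 10.3 RPKM (SD, n = 4), Ina, an intermediate filament of early neurons, at 41.6 ± 14.1 RPKM, and Stmn2, a regulator of microtubules in growing axons, at 39.5 ± 12.01 RPKM.

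Ina and Stmn2 did not differ beyond their spread in mESCs. In EBs the order was Ina at 39.2 ± 0.527 RPKM, Nefl at 30.7 ± 6.42 RPKM and Tubb3 at 27.3 ± 5.28 RPKM, of which the last pair also overlapped. The lowest mean values belonged to Gria2, an AMPA receptor subunit, at 0.0080 RPKM in embryos, 0.0015 RPKM in mESCs and 0.00225 RPKM in EBs. Scg2, a precursor of secreted peptides, was at 0.0115 RPKM in mESCs and 0.0708 RPKM in EBs, and Rab3c, a vesicle GTPase, at 0.0035 RPKM and 0.0195 RPKM. Unc13a, which primes vesicles for release, was at 0.0187 RPKM in embryos. Of the genes with a promoter match, Gria2 was thus at the bottom of the order. Celsr3, an adhesion receptor that guides axons, was at 1.667 RPKM in mESCs and 1.885 RPKM in EBs. Syn1, a protein that tethers vesicles, was at 3.437 RPKM in mESCs and 3.299 RPKM in EBs.

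**Figure D1:**
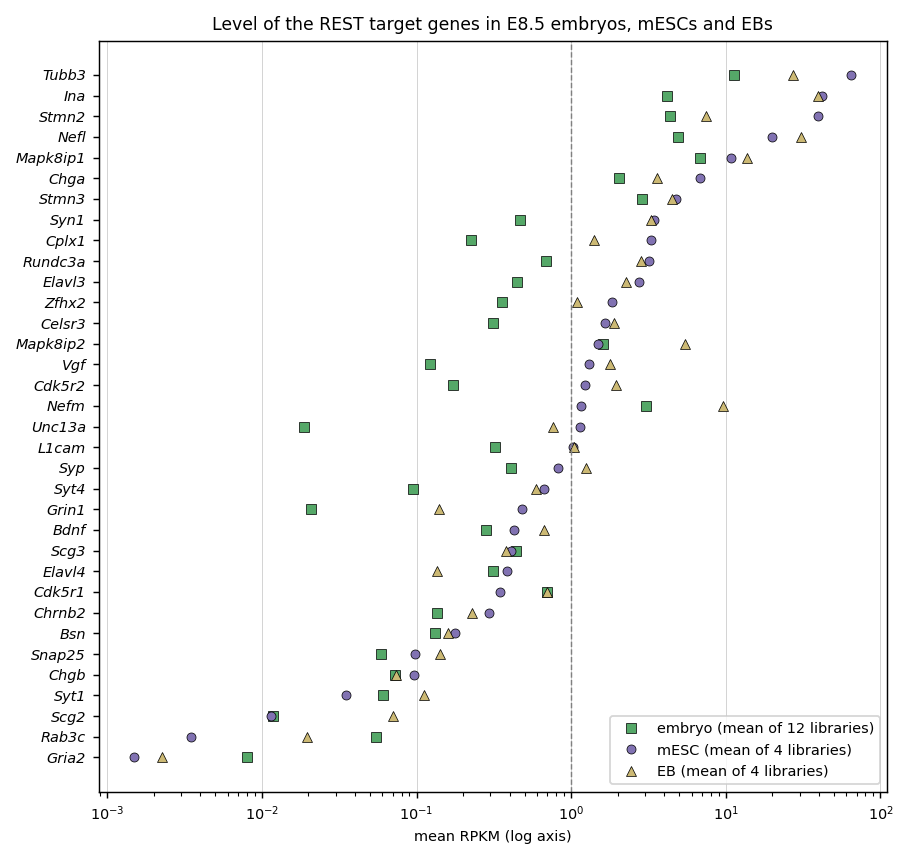
Mean RPKM of each target gene (log axis) in E8.5 embryos (12 libraries), mESCs (4) and EBs (4), both genotypes together, with a dashed line at 1 RPKM. Tubb3 stands highest in embryos at 11.4 RPKM and Gria2 lowest at 0.0080 RPKM, and 19 of the 34 targets lie at 1 RPKM or more in mESCs and in EBs.

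REST itself was transcribed at the same order of magnitude with and without Zmym2. In CPM, which are counts scaled to library size and by TMM and are used for all comparisons of samples, Rest was at 26.1, 35.9 and 49.6 (lowest, median and highest) in Zmym2+/+ embryos and at 24.4, 41.7 and 59.5 in Zmym2-/- embryos. The groups overlapped, and the log2 fold change was 0.29 (SE 0.22, adjusted p = 0.623 by edgeR's quasi-likelihood test). In mESCs Rest was at 125.0 and 109 CPM in controls and 126 and 113 CPM in Zmym2-/- lines (log2 fold change 0.03, SE 0.09, adjusted p = 0.877). In EBs it was at 45.2 and 57.8 CPM against 44.9 and 48.7 CPM (log2 fold change -0.14, SE 0.10, adjusted p = 0.501). Without control EB 1 the EB difference of Rest became -0.31 and passed the threshold (adjusted p = 0.0454).

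In embryos 1 of the 35 genes passed the threshold of an adjusted p under 0.05 between genotypes, Stmn3, a stathmin that regulates microtubules in neurons, and it was lower in Zmym2-/- embryos. None was higher, against 0.510% of all 22729 genes called higher and 0.0132% called lower. Without adjustment 2 of the 35 genes had a higher and 2 a lower level at p under 0.05, against 1289 and 1449 of all 22729 genes. The log2 fold changes were above 0 for 20 genes and below 0 for 15, with a median of 0.08 against 0.02 over all genes tested. That median was 0.46 in males alone and -0.29 in females alone, and -0.27 among embryos with H names. In bulk samples such as these, fewer cells of a type and less RNA per cell cannot be told apart.

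Stmn3 (chromosome 2, 181306459-181314500, mm10) was at 3.22, 4.70 and 5.77 CPM (lowest, median and highest) in Zmym2+/+ embryos and at 1.71, 1.96 and 2.50 CPM in Zmym2-/- embryos. Every Zmym2-/- embryo lay below every Zmym2+/+ embryo. The log2 fold change was -1.17 (SE 0.20, adjusted p = 0.0157), which is 2.25-fold. Among litters with both genotypes, Stmn3 was at 4.48 and 5.77 CPM against 1.74 CPM in 1 litter, at 4.92 against 2.50 CPM in another and at 4.92 against 1.84 CPM in the last. It was thus lower in the Zmym2-/- embryo of each. The call was lost without Zmym2+/+ embryo 4 (log2 fold change -1.09, adjusted p = 0.0505) and when only the 7 embryos of these litters were fitted with litter as a block (-1.33, adjusted p = 0.277), and was kept with sex as a covariate (adjusted p = 0.0285). Within males alone the log2 fold change of Stmn3 was -1.17 (adjusted p = 0.0623), within females -1.14 (0.3395), among embryos with H names -1.11 (0.852) and among those with J names -1.20 (0.290).

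Its relative Stmn2 (chromosome 3, 8509360-8561606) was at 25.2, 26.6 and 45.5 CPM in Zmym2+/+ embryos and at 15.1, 19.1 and 22.3 CPM in Zmym2-/- embryos. These groups did not overlap either, although the adjusted p was 0.118 (log2 fold change -0.71, SE 0.17), and DESeq2 called it (adjusted p = 0.00976). Stmn3 and Stmn2 were the only members with no overlap. None was separated in the other direction, while over all genes 1.03% were separated upwards and 0.145% downwards.

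The largest differences that did not pass the threshold were those of Ina and of Elavl3, an RNA-binding protein of neurons. Ina was at 1.27, 6.17 and 22.5 CPM in Zmym2+/+ embryos while Zmym2-/- embryos were at 8.68, 17.1 and 30.5 CPM (a log2 fold change of 1.12, SE 0.52, adjusted p = 0.409). Elavl3 was at 0.890, 1.15 and 2.91 CPM against 0.991, 2.698 and 6.52 CPM (log2 fold change 1.06, SE 0.45, adjusted p = 0.387). For Ina every Zmym2+/+ embryo except embryo 5 lay below every Zmym2-/- embryo, and without embryo 5 the log2 fold change was 1.74 (adjusted p = 0.0670). For Elavl3 the groups overlapped more widely, and embryo 5 was again the highest of the Zmym2+/+ embryos. Of the 7 other cytoskeletal members none was called, nor was any of the 10 members of the release machinery, the 6 granins and neurotrophin, the 3 receptors, the 2 adhesion proteins, the 3 RNA-binding proteins and transcription factors or the 2 JNK scaffolds.

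Zmym2-/- embryos 5 and 6 stood apart in other lineages. The summed level of 6 motile cilia markers was 24.3 and 104 CPM in them and 2.64 to 5.403 CPM in Zmym2+/+ embryos, and embryo 6 was also highest in the sum of 5 pluripotency markers at 402 CPM. Without these 2 embryos the log2 fold change of Stmn3 was -1.21 and its adjusted p 0.0549. The sum of 11 markers of differentiated neurons, none of them a member, was 30.9, 55.3 and 66.2 CPM in Zmym2+/+ embryos and 33.0, 44.7 and 72.6 CPM in Zmym2-/- embryos, and the sum of 9 proneural markers was 6.24, 27.7 and 70.2 CPM against 5.01, 46.9 and 69.8 CPM. The ranges overlapped and no gene of either list was called. Their part in the difference of Stmn3 was not tested.

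**Figure D2:**
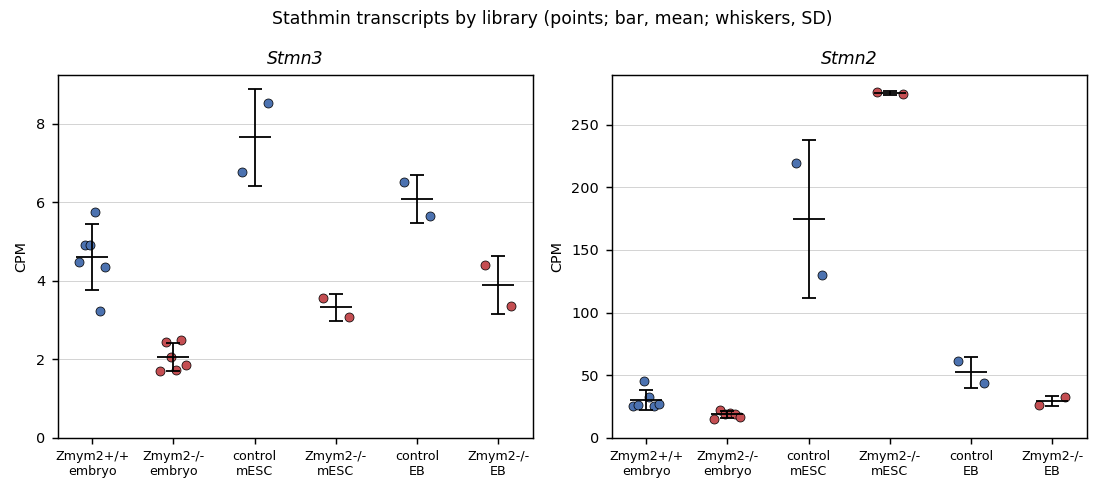
CPM of the stathmins Stmn2 and Stmn3 in each library (points) by group, with the mean (bar) and SD (whiskers), on axes that start at 0. In embryos all 6 Zmym2-/- libraries lie below all 6 Zmym2+/+ libraries for both genes, and in mESCs Stmn2 lies higher and Stmn3 lower in the Zmym2-/- lines.

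In mESCs 12 of the 32 genes changed without Zmym2, in both directions. The intermediate filament gene Ina, Stmn2, Tubb3 and Syt4 were higher, and 8 genes were lower, among which the homeobox gene Zfhx2 had the smallest p. That is 12.5% of the members higher against 10.3% of all 20159 genes, and 25.0% lower against 8.94%. The member median was 0.07 against 0.01 over all genes, with 18 values above and 14 below 0.

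Of the cytoskeletal genes, 3 rose and 2 fell. Ina (chromosome 19, 47014698-47025327) was at 109 and 86.5 CPM in controls and at 184 and 170 CPM in Zmym2-/- lines (log2 fold change 0.85, SE 0.11, adjusted p = 0.000106). Stmn2 was at 219 and 130.2 CPM in controls and 277 and 274 CPM in Zmym2-/- lines (0.66, SE 0.16, adjusted p = 0.0132). Tubb3 was at 114 and 100.3 CPM against 146 and 132 CPM (0.38, SE 0.09, adjusted p = 0.0118). For all 3 genes both Zmym2-/- libraries lay above both control libraries. For Stmn2 the controls lay far apart, and its log2 fold change was 0.33 without control mESC 2 and 1.08 without control mESC 1, called in both.

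Stmn3 moved the other way, from 6.78 and 8.54 CPM in controls to 3.57 and 3.09 CPM in Zmym2-/- lines (log2 fold change -1.20, SE 0.21, adjusted p = 0.00165). Nefl was at 81.6 and 76.9 CPM against 60.6 and 54.1 CPM (-0.46, SE 0.10, adjusted p = 0.00434). The stathmins, which both lay lower in every Zmym2-/- embryo than in any Zmym2+/+ embryo, went in opposite directions in mESCs. Nefm, the medium neurofilament subunit that lies beside Nefl in the genome, was at 7.19 and 5.36 CPM against 7.80 and 6.84 CPM (0.22, SE 0.20, adjusted p = 0.502).

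In the release machinery 1 gene rose and 1 fell. Syt4, a synaptotagmin without the usual calcium response, was at 2.17 and 1.48 CPM in controls and 3.78 and 3.12 CPM in Zmym2-/- lines (log2 fold change 0.91, SE 0.28, adjusted p = 0.0370). Cplx1, a complexin that clamps the SNARE complex, was at 8.82 and 11.2 CPM against 3.25 and 5.80 CPM (-1.15, SE 0.25, adjusted p = 0.00533). Neither gene had overlapping groups. The calcium sensor Syt1 had the largest difference among the genes not called, at 0.279 and 0.140 CPM against 0.207 and 0.567 CPM (0.84, SE 0.69, adjusted p = 0.458). That value rested on single libraries, and was -0.04 without Zmym2-/- mESC 2 and 1.44 without control mESC 1.

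Among the secreted proteins 2 granins fell. Chga, chromogranin A, was at 23.1 and 21.4 CPM in controls and 15.8 and 15.7 CPM in Zmym2-/- lines (log2 fold change -0.50, SE 0.13, adjusted p = 0.0149), and Scg3, which sorts granins into granules, was at 1.44 and 1.79 CPM against 0.561 and 0.756 CPM (-1.28, SE 0.36, adjusted p = 0.0245). The peptide precursor Vgf was at 4.03 and 1.59 CPM against 5.17 and 4.98 CPM and was not called (0.83, SE 0.33, adjusted p = 0.101). Its control libraries stood apart, and without control mESC 1 its log2 fold change was 1.67 (adjusted p = 0.000696).

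The receptor gene Grin1, the shared subunit of NMDA receptors, was at 4.10 and 8.40 CPM in controls and 3.04 and 3.37 CPM in Zmym2-/- lines (log2 fold change -0.95, SE 0.30, adjusted p = 0.0409). The higher control made much of that difference, which was -0.35 without control mESC 2 (adjusted p = 0.6246). Of the regulators, Zfhx2 (chromosome 14, 55060262-55092324) was at 44.7 and 50.4 CPM against 17.8 and 22.1 CPM (-1.25, SE 0.13, adjusted p = 2.6e-05), and Elavl3 at 21.9 and 23.9 CPM against 16.4 and 15.2 CPM (-0.54, SE 0.13, adjusted p = 0.0110). Zfhx2 shares 3255 exon bases with an antisense gene, Zfhx2os, so reads of the 2 genes cannot be told apart if strand was not used in counting.

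With 2 libraries a genotype, single ones carried several of these calls. Without control mESC 2, Elavl3 (adjusted p = 0.102), Scg3 (0.165), Syt4 (0.290) and Tubb3 (0.0972) were lost beside Grin1, without Zmym2-/- mESC 1 Grin1 (0.0739), Scg3 (0.0761), Syt4 (0.0984) and Tubb3 (0.0540) were lost, and without control mESC 1 Chga was lost (0.116). Ina, Zfhx2, Stmn3, Cplx1, Nefl and Stmn2 were called with any 1 library left out. DESeq2 did not call Stmn2 (adjusted p = 0.237), Scg3 (0.0873) or Syt4 (0.0687), and a fit of all 8 line libraries did not call Nefl (0.0642).

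Markers of other cell states also differed between the mESC genotypes. Of 5 pluripotency markers 3 were called lower (summed level 3350 and 3543 CPM in controls, 2739 and 2920 CPM in Zmym2-/- lines). The 5 markers of primed epiblast and streak did not move together. In that list 2 were called higher and 2 were lower at an unadjusted p under 0.05, with a median log2 fold change of -0.01. Their sum was 16.5 and 17.7 CPM against 39.2 and 46.0 CPM. It rested on Otx2, at 6.05 and 5.66 CPM in controls and 28.1 and 34.7 CPM in Zmym2-/- lines. Eomes went the other way, from 8.82 and 10.9 CPM to 6.999 and 6.68 CPM. Markers of differentiated neurons were called higher for 2 of 8, with sums of 33.3 and 38.1 CPM against 44.4 and 48.6 CPM and a median log2 fold change of 0.19. That sum rested on Gap43, at 13.9 and 14.45 CPM in controls and 28.1 and 24.1 CPM in Zmym2-/- lines. Mapt went the other way, from 8.71 and 10.55 CPM to 7.06 and 7.12 CPM. Proneural markers were called higher for 2 of 6, with sums of 19.1 and 24.2 CPM against 28.6 and 31.1 CPM and a median of 0.79. This sum rested on Dll1, at 4.31 and 2.57 CPM in controls and 12.2 and 11.3 CPM in Zmym2-/- lines. Dll3 did not rise, at 9.66 and 9.21 CPM against 9.21 and 8.2 CPM. Their part in the changes of the REST targets was not tested.

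**Figure D3:**
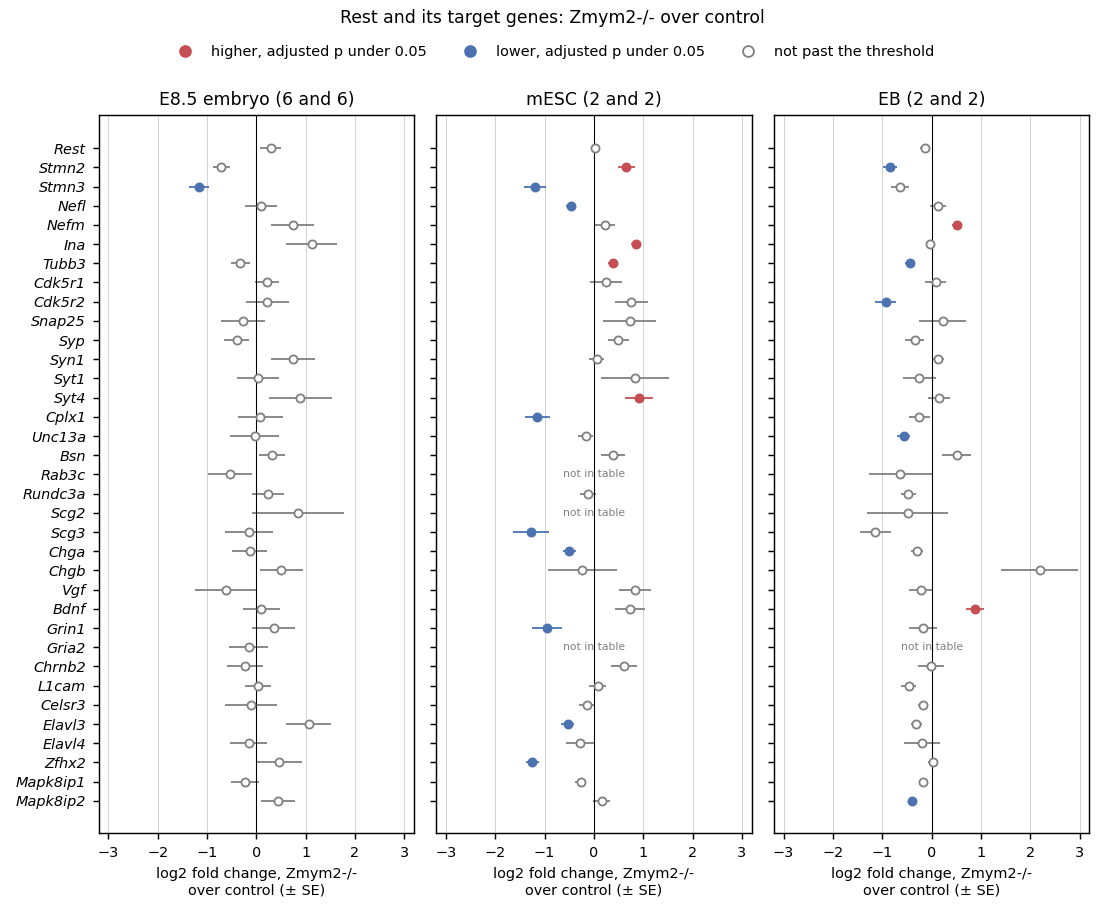
Log2 fold change, Zmym2-/- over control, of Rest and its target genes in embryos (6 against 6), mESCs (2 against 2) and EBs (2 against 2), with whiskers of 1 SE and filled points for an adjusted p under 0.05. In embryos 1 gene is filled, in mESCs 12 on both sides of 0, and in EBs 7, of which 5 lie below 0.

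In EBs 7 of the 34 genes changed, 2 upwards and 5 downwards. The share of members called was 5.88% higher against 4.62% of all 20142 genes, and 14.7% lower against 2.77%. Values below 0 were in the majority, with 24 of 34 genes, and the median was -0.21 against 0.01 over all genes. Without adjustment 3 of the 34 genes were higher and 12 lower at p under 0.05, against 2350 and 1801 of all 20142 genes.

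The cytoskeletal genes again went both ways. Nefm was at 44.6 and 44.6 CPM in controls and 71.99 and 55.4 CPM in Zmym2-/- EBs (log2 fold change 0.52, SE 0.10, adjusted p = 0.00863). Stmn2 was at 61.0 and 43.6 CPM against 26.2 and 32.2 CPM (-0.84, SE 0.14, adjusted p = 0.00293), and Tubb3 at 60.9 and 54.8 CPM against 47.15 and 37.6 CPM (-0.44, SE 0.10, adjusted p = 0.0173). Stmn2 and Tubb3, which were higher in Zmym2-/- mESCs, were thus lower in Zmym2-/- EBs, with no overlap of the groups in either. The EB values of Nefm and Tubb3 were smaller without 1 library, at 0.32 without Zmym2-/- EB 1 and -0.29 without Zmym2-/- EB 2, both called.

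Cdk5r2, an activator of the neuronal kinase CDK5, was at 7.39 and 6.71 CPM in control EBs and 2.86 and 4.64 CPM in Zmym2-/- EBs (log2 fold change -0.93, SE 0.21, adjusted p = 0.0209). Stmn3 was at 6.53 and 5.66 CPM against 4.41 and 3.36 CPM and fell short of the threshold (-0.64, SE 0.19, adjusted p = 0.0619). Its groups did not overlap. Ina was at 125 and 127 CPM against 123 and 124 CPM (-0.03, SE 0.05, adjusted p = 0.845).

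Outside the cytoskeleton, Bdnf, the neurotrophin, was at 2.83 and 2.95 CPM in control EBs and 5.41 and 5.20 CPM in Zmym2-/- EBs (log2 fold change 0.88, SE 0.18, adjusted p = 0.0114). Unc13a was at 11.5 and 11.2 CPM against 8.10 and 7.15 CPM (-0.56, SE 0.13, adjusted p = 0.0192), and the JNK scaffold Mapk8ip2 at 36.1 and 33.7 CPM against 26.3 and 26.8 CPM (-0.39, SE 0.08, adjusted p = 0.0120). In each the libraries of a genotype lay close together. Scg3 was at 1.43 and 1.40 CPM against 0.676 and 0.594 CPM (-1.14, SE 0.32, adjusted p = 0.0537), and Chgb, chromogranin B, had only 3 and 2 counts in control EBs against 22 and 8 in Zmym2-/- EBs (2.19, SE 0.77, adjusted p = 0.122).

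Without control EB 1 the calls of Mapk8ip2 (adjusted p = 0.0564) and Unc13a (0.0535) were lost, and without Zmym2-/- EB 1 that of Cdk5r2 (log2 fold change -0.60, adjusted p = 0.0830). In a fit of all 8 line libraries Bdnf, Cdk5r2 and Mapk8ip2 were not called. Of the 11 markers of differentiated neurons 1 was called higher and 1 lower, with summed levels of 30.5 and 33.8 CPM in control EBs and 28.7 and 29.8 CPM in Zmym2-/- EBs. Other lineages moved as well. Heart muscle markers summed to 12.1 and 13.6 CPM against 23.0 and 26.1 CPM, with 1 of 3 called higher. Visceral endoderm markers summed to 1.93 and 8.97 CPM against 1.70 and 2.44 CPM, with 1 of 4 called lower. These sums overlapped, and their difference rested on control EB 1, at 8.97 CPM. Of the 5 pluripotency markers 1 was called higher, with sums of 1566 and 1640 CPM against 1512 and 1547 CPM. The part of such cells in the values of the REST targets was not tested.

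Set side by side, 18 of the 35 genes were called in none of the 3 comparisons of genotype, 14 in 1 and 3 in 2. Over all genes 0.510% were called higher and 0.0132% lower in embryos, 10.3% and 8.94% in mESCs, and 4.62% and 2.77% in EBs. Calls in more than 1 comparison were counted for the members alone. Stmn3 was lower in embryos and mESCs. Stmn2 and Tubb3 were higher in mESCs and lower in EBs, and no gene was called in all 3. Snap25, Syn1, Bsn, a scaffold of the active zone, Chgb, Celsr3 and L1cam, an axonal adhesion protein, were called neither between genotypes nor between the stages described next. Rab3c and Scg2 were tested in embryos and EBs and Gria2 in embryos alone, with no call. The log2 fold change of Celsr3 between genotypes was -0.11 in embryos, -0.15 in mESCs and -0.18 in EBs, and that of L1cam was 0.03, 0.08 and -0.46.

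Between mESCs and EBs of the control lines 19 of 32 genes changed, with 9 higher (28.1% of members, 23.0% of all 18926 genes) and 10 lower (31.2%, against 23.6%) in EBs. Rest itself fell, from 125.0 and 109 CPM in mESCs to 45.2 and 57.8 CPM in EBs (log2 fold change -1.18, SE 0.11, adjusted p = 2.39e-06). In the Zmym2-/- lines it fell from 126 and 113 CPM to 44.9 and 48.7 CPM (-1.35, SE 0.11, adjusted p = 9.34e-07). The targets did not move together, and the median log2 fold change of the 32 genes, EB over mESC, was -0.08 in control lines and -0.12 in Zmym2-/- lines.

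In control lines Nefm rose most, from 7.19 and 5.36 CPM to 44.6 and 44.6 CPM (log2 fold change 2.82, SE 0.15, adjusted p = 2.05e-08). The vesicle calcium sensor Syt1 rose by 2.20, Mapk8ip2 by 2.10, Cdk5r2 by 1.44, its relative Cdk5r1 by 1.04, Syp, a membrane protein of vesicles, by 0.99, Vgf by 0.98, Ina by 0.37 and Mapk8ip1 by 0.27 on the log2 scale. Syt1 stayed at 1.02 CPM or less. Grin1 fell from 4.10 and 8.40 CPM to 1.34 and 1.502 CPM (-2.12, SE 0.32, adjusted p = 0.000125), and by less, -1.52, without control mESC 2.

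Stmn2 (-1.74), Elavl4, an RNA-binding protein related to Elavl3 (-1.61), Cplx1 (-1.61), Zfhx2 (-1.30), Chga (-1.06), Tubb3 (-0.89), Unc13a (-0.46) and Elavl3 (-0.43) also fell in control lines, on the log2 scale. All 3 members that bind RNA or are transcription factors were among the genes that fell. Of the genes not called, Chgb (-1.97, SE 0.78, adjusted p = 0.0538) and Snap25, a SNARE protein (0.79, SE 0.61, adjusted p = 0.323), had the largest differences. Chgb was called without control mESC 1 (-2.51, adjusted p = 0.0284), and the value of Snap25 ran from -0.49 without control EB 2 to 1.87 without control mESC 2. The calls of Vgf, Unc13a, Mapk8ip1, Elavl3 and Ina each depended on single libraries. Without control mESC 1 the change of Vgf was 1.82 and that of Syt1 2.81, both called. Without control mESC 2 the change of Vgf was 0.48 (adjusted p = 0.239), that of Unc13a -0.33 (0.145), that of Ina 0.21 (0.0540) and that of Elavl3 -0.37 (0.0540), and without control mESC 1 that of Mapk8ip1 was 0.21 (0.174).

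In the Zmym2-/- lines 17 of 32 genes changed between the stages, with 6 higher (18.8% of members, 23.1% of all genes) and 11 lower (34.4%, against 22.1%). Nefm rose most again, from 7.80 and 6.84 CPM to 71.99 and 55.4 CPM (log2 fold change 3.12, SE 0.16, adjusted p = 1.26e-08), followed by Mapk8ip2 (1.55), Nefl (0.89), Cdk5r1 (0.88), Bdnf (0.66) and Mapk8ip1 (0.36). Stmn2 fell from 277 and 274 CPM to 26.2 and 32.2 CPM (-3.24, SE 0.22, adjusted p = 1.44e-07). Tubb3 (-1.71), Elavl4 (-1.52), Grin1 (-1.34), Unc13a (-0.86), Chga (-0.85), Cplx1 (-0.71), Chrnb2, a nicotinic receptor subunit (-0.70), Ina (-0.52) and Rundc3a, a protein of neuronal vesicle transport (-0.43), fell as well.

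Syt1 (1.13, SE 0.48, adjusted p = 0.0750) and Syt4 (-0.53, SE 0.24, adjusted p = 0.0976) were the largest differences not called. DESeq2 did not call the change of Bdnf (adjusted p = 0.0569) or Chrnb2 (0.0684). An edgeR fit of the Zmym2-/- libraries alone did not call Bdnf (adjusted p = 0.0631), Cplx1 (0.072) or Rundc3a (0.0792). Single libraries decided some calls in these lines too. With 1 library left out the change of Bdnf ran from 0.35 to 1.06 and that of Rundc3a from -0.61 to -0.26. Without Zmym2-/- mESC 1 the change of Bdnf was 1.06 and that of Cplx1 -1.07, both called. Without Zmym2-/- mESC 2 the change of Cplx1 was -0.24 (adjusted p = 0.476), that of Bdnf 0.35 (0.271), that of Chrnb2 -0.55 (0.173) and that of Rundc3a -0.45 (0.0773), while that of Syt1 was 2.01 and called (0.0175). Without Zmym2-/- mESC 1 Cdk5r1 (0.68, adjusted p = 0.0795) and Mapk8ip1 (0.23, adjusted p = 0.0566) were not called, and without Zmym2-/- EB 1 the change of Rundc3a was -0.26 (0.315).

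The change from mESC to EB differed between genotypes for 4 genes, 1 more positive and 3 more negative in Zmym2-/- lines (3.12% of members against 3.07% of all genes, and 9.38% against 2.18%). Zfhx2 fell in control lines, from 44.7 and 50.4 CPM to 20.4 and 18.2 CPM, while in Zmym2-/- lines it was at 17.8 and 22.1 CPM in mESCs and 19.1 and 20.2 CPM in EBs. The difference of the changes was 1.28 (SE 0.17, adjusted p = 0.00124). Its level in Zmym2-/- mESCs was thus close to that of EBs of either genotype.

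Ina rose in control lines, from 109 and 86.5 CPM to 125 and 127 CPM, and fell in Zmym2-/- lines, from 184 and 170 CPM to 123 and 124 CPM (difference of the log2 changes -0.88, SE 0.13, adjusted p = 0.00259). Stmn2 fell in both, from 219 and 130.2 CPM to 61.0 and 43.6 CPM in control lines and by more in Zmym2-/- lines (-1.50, SE 0.28, adjusted p = 0.0104). Tubb3 fell from 114 and 100.3 CPM to 60.9 and 54.8 CPM in controls and from 146 and 132 CPM to 47.15 and 37.6 CPM without Zmym2 (-0.82, SE 0.15, adjusted p = 0.00893). All 3 genes started higher in Zmym2-/- mESCs. Stmn2 was not called without control EB 1 (-1.22, adjusted p = 0.0573) or Zmym2-/- EB 1 (adjusted p = 0.0540), nor Tubb3 without control EB 1 (-0.73, adjusted p = 0.0527).

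Cdk5r2 rose in control lines and was at 3.22 and 5.55 CPM in Zmym2-/- mESCs against 2.86 and 4.64 CPM in Zmym2-/- EBs, a difference of changes of -1.68 that missed the threshold (SE 0.47, adjusted p = 0.0581). DESeq2 called it (-1.70, adjusted p = 0.0070). So did edgeR with libraries of 1 number as a block (-1.71, adjusted p = 4.36e-05), although the numbers are not known to pair libraries. It passed without control mESC 1 (-2.26, adjusted p = 0.0282) and without Zmym2-/- mESC 1 (-2.02, adjusted p = 0.0246). Chgb (2.42, SE 1.00, adjusted p = 0.197) was larger but rested on few counts. Rest did not pass (-0.17, SE 0.16, adjusted p = 0.618). Markers outside the members were also called in this contrast. More negative were 2 of 6 neural progenitor, 1 of 5 proneural, 1 of 8 differentiated neuron and 1 of 3 neural crest markers. So were 2 of 5 markers of primed epiblast and streak, while 2 others of that list were more positive at an unadjusted p under 0.05. Of 5 pluripotency markers 3 were called more positive. Medians were -0.71 for neural progenitors, 0.27 for differentiated neurons, 0.004 for primed epiblast and streak and 0.70 for pluripotent cells. Their part in the values of the members was not tested.

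**Figure D4:**
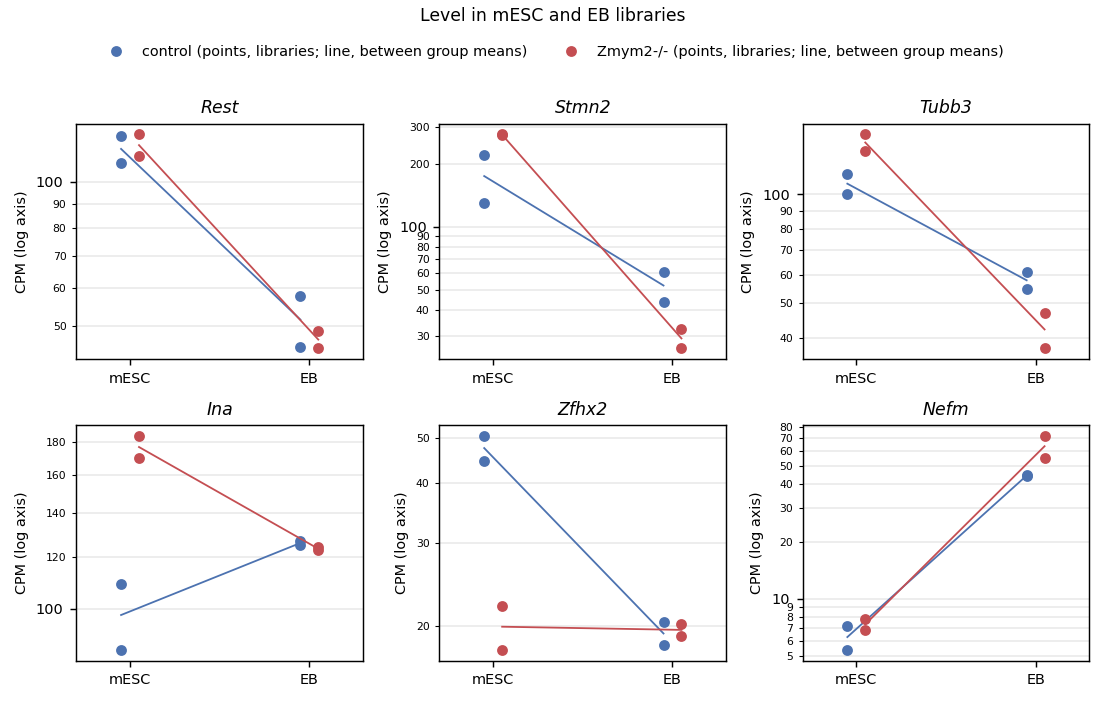
CPM (log axis) of Rest, Stmn2, Tubb3, Ina, Zfhx2 and Nefm in each mESC and EB library (points) of control and Zmym2-/- lines, with a line between the group means. Zfhx2 is lower in both control EB libraries than in both control mESC libraries and lies between 17.8 and 22.1 CPM in all 4 Zmym2-/- libraries, while Ina starts at 184 and 170 CPM in Zmym2-/- mESCs and at 109 and 86.5 CPM in control mESCs and reaches 123 to 127 CPM in all EBs.

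Male and female embryos were compared for the effect of genotype. No member and no gene of the 22729 was called by edgeR (0% in each direction), while 2334 genes were more positive in males and 2733 more negative at an unadjusted p under 0.05. DESeq2 called 6 members, each more positive in males, among 1252 genes more positive and 1332 more negative. Without adjustment 8 of the 35 members had a more positive genotype difference in males and none a more negative one. The median of the members was 0.77 against -0.07 over all genes.

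Snap25 was largest, at 0.573, 0.517 and 0.541 CPM in Zmym2-/- males and 0.147, 0.223 and 0.151 CPM in Zmym2-/- females (interaction 2.64 on the log2 scale, SE 0.62, adjusted p = 0.0638). In Zmym2+/+ embryos the order was the other way, with 0.183, 0.248 and 0.433 CPM in males and 0.554, 0.460 and 0.728 CPM in females. Scg3 was at 1.78, 0.707 and 1.94 CPM in Zmym2-/- males against 0.464, 0.273 and 0.362 CPM in Zmym2-/- females, and at 1.02, 0.688 and 0.783 CPM against 1.19, 0.727 and 1.74 CPM in Zmym2+/+ embryos (2.56, SE 0.66, adjusted p = 0.0714). Zmym2-/- males and females did not overlap for either gene, while the sexes overlapped for Scg3 in Zmym2+/+ embryos. The other 6, with values of 1.57 to 2.28, were Chrnb2, Elavl4, Grin1, Mapk8ip1, Syn1 and Syt1. Markers outside the members moved in the same contrast, with medians of 2.14 for neural progenitors, 1.61 for differentiated neurons, 2.78 for heart muscle and -2.41 for pluripotent cells, and Zmym2-/- embryos 5 and 6 are both females. Zmym2 RNA moved too, with 54.7 to 67.1 CPM in Zmym2-/- males and 25.4 to 40.8 CPM in Zmym2-/- females (interaction 1.39, SE 0.35, adjusted p = 0.0689 by edgeR, and 1.42, adjusted p = 0.00896 by DESeq2). Its part in the values of the members was not tested. Sex and litter cannot be told apart among the Zmym2-/- males.

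Of the proteins that work with REST or control its stability, 23 genes were tested. None was called in embryos, where 0.510% of all 22729 genes were called higher and 0.0132% lower. In mESCs Btrc, a ubiquitin ligase subunit that marks REST for degradation (log2 fold change 0.60), Ehmt1, a histone methyltransferase (0.38), and Rcor2, a relative of RCOR1 (0.31), were higher in Zmym2-/- lines. Rcor1, the CoREST scaffold, was lower, at 45.4 and 47.1 CPM in controls and 28.4 and 27.9 CPM in Zmym2-/- lines (-0.72, SE 0.11, adjusted p = 0.00041). That is 3 of 23 higher and 1 lower, where 10.3% of all 20159 genes were called higher and 8.94% lower. In EBs Phf21a, a histone reader of the same complex, was lower (-0.38) and none was higher, where 2.77% of all 20142 genes were called lower and 4.62% higher. Between stages 7 of the 23 rose and 9 fell in control lines, where 23.0% of all 18926 genes rose and 23.6% fell. In Zmym2-/- lines 6 rose and 9 fell, where 23.1% of all genes rose and 22.1% fell. Ctdsp2, a phosphatase that stabilizes REST, and Btrc differed in this change between genotypes. The former was more positive and the latter more negative in Zmym2-/- lines, where 3.07% and 2.18% of all 18926 genes were called so.

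Other genes known as REST targets numbered 18, of which 16 were tested in embryos, 14 in mESCs and 15 in EBs. None was called in embryos. In mESCs only Stmn4, another stathmin, was called, with 3 and 1 counts in controls and 25 and 19 in Zmym2-/- lines. Over all 20159 genes 10.3% were called higher there and 8.94% lower. In EBs only Nefh, the heavy neurofilament subunit, was called, and it was higher (log2 fold change 0.40). Over all 20142 genes 4.62% were called higher in EBs and 2.77% lower. From mESC to EB 4 of the 14 rose and 2 fell in control lines, where 23.0% of all 18926 genes rose and 23.6% fell. In Zmym2-/- lines 3 rose and 2 fell, where 23.1% of all genes rose and 22.1% fell.

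In the mm10 annotation 12 of the 35 genes share exon bases with a gene on the opposite strand. Nefl and Nefm share 1108 bases with each other, Grin1 1307 with Grin1os, Chrnb2 1365 with Adar, Bdnf 896 with Gm45346, Syp 875 with Gm14703, Syt4 566 with Gm26658, Unc13a 495 with Colgalt1, Ina 456 with Nt5c2, Mapk8ip1 96 with 1700029I15Rik and Syn1 9 with Araf. The values of these genes are uncertain to the extent that counting ignored strand, which was not given in the sources used here. Stmn2, Stmn3, Tubb3 and Cdk5r2 were not among the 12.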

How the data were processed

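RNA was sequenced from 12 E8.5 embryos and from 4 mESC and 4 EB libraries. The libraries were stranded mRNA libraries, and after trimming (Trimmomatic 0.34), alignment to mm10 (STAR 2.7.8a) and duplicate marking (Picard 2.9.0) the authors deposited raw counts per gene from HTSeq-count, in 1 table each for embryos, mESCs and EBs. The deposited RPKM values came from StringTie (1.3.5) and were used only to compare levels between genes. The HTSeq annotation and strand setting are not given in the sources used here. Deposited columns of a score, close to the raw count times 1 factor per library and rounded by the authors, were not used for tests.

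Genes with at least 10 summed counts were tested with edgeR (4.0.16, R 4.3.3) by TMM and the quasi-likelihood test, with Benjamini-Hochberg adjustment over all genes of the fit and calls at an adjusted p under 0.05. CPM of the 8 line libraries come from 1 TMM fit over the 18926 genes in both tables, and the stage comparisons from 1 fit of these libraries. Standard errors are the log2 fold change divided by the square root of F. Positive values are higher in Zmym2-/-, in EBs or, for the interactions, in Zmym2-/- lines or males. DESeq2 (1.42.0) and other filters, scalings, blocks and left-out libraries were alternatives. Tested on simulated data with 67 genes changed 2-fold, the fit called 17 in the embryo comparison (22729 genes), 49 in mESCs (20159 genes) and 61 in EBs (20142 genes). The changed genes were drawn only from those above a minimum mean count. P-values over 2 libraries a genotype measure only the spread between them.

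Named are Rest, Zmym2, every member called in any comparison, the 2 members with the largest difference among those not called in each comparison, and the 3 with the highest and lowest RPKM. Genes outside this rule (Syn1, Celsr3, L1cam and Bsn) were added after their values were seen. The members and lists were chosen with earlier results of these data known. Lists are described by counts and medians with no set test. The number in embryo names was read as the litter. Replicate numbers were not taken to pair libraries. Figures were drawn with matplotlib (3.10.9). No gene of any of the 10 lists of marker genes was called in embryos.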

Additional observations from a re-analysis of the deposited data

Results flagged for a closer look

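Among 14 groups of 6 embryos tested for a value far from the rest, 2 were flagged. The limit used flags about 1 in 20 groups of normally distributed values. It was applied to CPM without logarithms, for which that rate need not hold. Zmym2+/+ embryo 5 was at 22.5 CPM of Ina, with the nearest embryo of its group at 7.80 CPM. The same embryo was at 2.91 CPM of Elavl3, with the nearest at 1.51 CPM. No cause was tested.

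The mESC to EB change differed between control and Zmym2-/- lines, by the interaction term of edgeR's quasi-likelihood test, for Ina (-0.88), Stmn2 (-1.50), Tubb3 (-0.82) and Zfhx2 (1.28), on the log2 scale with 2 libraries a genotype and stage. For Ina, Stmn2 and Tubb3 both Zmym2-/- libraries were above both control libraries in mESCs, and for Zfhx2 both were below.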

How the results depend on the processing

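No called value changed sign under any alternative that was run. Members called lower in embryos numbered 2 with DESeq2 and 0 with a fold of at least 4, with the replicate block, with the litter block, in the H series, J series, males or females alone, and without Zmym2-/- embryos 5 and 6. Over all genes DESeq2 called 37 lower in embryos, against 3 in the main fit. In mESCs DESeq2 called 2 members higher, with 1710 of all genes higher against 2068 in the main fit. A fold of at least 4 left 0 members higher and 0 lower in mESCs, in EBs and in the interaction. It left 3 higher and 1 lower over stage in control lines, and 1 and 1 in Zmym2-/- lines. Over all genes that fold left 710 higher and 73 lower in mESCs, 311 and 7 in EBs, and 48 and 64 in the interaction. Over stage it left 757 and 796 of all genes in control lines and 599 and 710 in Zmym2-/- lines. In EBs the replicate block called 8 members lower, with 841 of all genes lower against 558 in the main fit. The fit of all 8 libraries called 1 member higher and 3 lower in EBs, with 664 and 291 of all genes. With mESC and EB libraries of 1 number as a replicate block the interaction called 3 members higher and 7 lower. Over all genes that block called 1299 higher and 1026 lower, against 581 and 412 in the main fit. Beside these, no count of members moved by over 1.5 times under a block. The sources do not say that the numbers pair libraries, whose deviations correlated at 0.17 (control) and 0.44 (Zmym2-/-) across stages, -0.47 to 0.40 in embryos, and -0.04 (mESC) and -0.05 (EB) across genotypes. DESeq2 called 6 members higher in the sex interaction. Without single libraries, counts of higher and lower ranged over 0 and 0 to 1 (embryo), 2 to 6 and 5 to 9 (mESC), 2 to 3 and 4 to 6 (EB), 7 to 9 and 8 to 11 (stage, control), 4 to 7 and 8 to 11 (stage, Zmym2-/-), and 1 to 2 and 1 to 5 (interaction). The promoter matches were in 3 genes, or in 2 and 3 with 1 mismatch fewer and more. Of 192 values that answer a comparison 158 stayed on their side or within 1.5 times. In embryos 17 of 67 simulated 2-fold changes were called, so smaller differences were mostly not detectable.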
